A study of Mus musculus with 48 samples.

Results

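The genes described here are nuclear genes named for subunits of the 5 complexes of oxidative phosphorylation. They were taken from the deposited expression table by name: symbols starting with Nduf followed by a, b, c, s or v and a digit, with Uqcr, with Cox and a digit from 4 to 8, or with Atp5, the 4 genes Sdha to Sdhd, and Ndufab1, leaving out 7 names marked as pseudogenes with -ps. The rule found 84 of 34617 genes, of which 38 belong by name to complex I, 4 to complex II, 8 to complex III, 18 to complex IV and 16 to complex V. The names take in Atp5s, whose product is not a structural subunit, and place Ndufa4, now assigned to complex IV, in complex I. No measured value entered the rule.

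RNA was sequenced from 24 clones of mouse bone marrow ER-Hoxb8 cells, each in 2 states, giving 48 libraries. ER-Hoxb8 cells are myeloid progenitors that an estrogen-receptor fusion of the homeobox factor Hoxb8 keeps dividing and that mature when the fusion is switched off. By the labels, 1 library per clone is from granulocyte-monocyte progenitors and 1 from monocytic cells (called progenitor and monocyte below, n = 24 each), and the series design pairs them by clone. All 48 libraries carry ER-Hoxb8, and the growth medium named for them contains stem cell factor. The sources used here do not state the strain, age or sex of the donor animals, or whether clones came from separate animals. Each clone was measured once in each state, so the errors and p-values below measure the spread between clones.

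Complexes I, III and IV pass electrons from NADH and succinate to oxygen and pump protons across the inner mitochondrial membrane, complex II feeds electrons in from succinate without pumping, and complex V uses the proton gradient to make ATP. Apart from complex II, each complex joins subunits made from nuclear genes with a few made from mitochondrial DNA, so both genomes have to supply parts. Myeloid cells are known to shift between respiration and glycolysis as they proliferate, mature and become activated.

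Values are TPM, transcript abundances corrected for length and scaled to the same total in each library. They are relative and the number of reads behind them is unknown, so no counting error can be given. In bulk RNA, fewer cells of a type and less RNA per cell cannot be told apart. From progenitors to monocytes all 6 progenitor markers (Cd34, Kit, Flt3, Myb, Sox4, Cebpa) fell. Of 7 monocyte markers 5 rose, F13a1 did not pass and Ccr2, a chemokine receptor of inflammatory monocytes, fell by 0.97 on the log2 scale. Neutrophil markers (S100a8, S100a9, Ltf, Camp, Ngp, Retnlg) rose as well, 6 of 6, and took 0.0340 to 18.5% of TPM in the monocyte libraries. Their summed level there had a median of 73329 TPM, against 11764 TPM for the 7 monocyte markers. The name monocyte therefore follows the labels and not the markers alone. Mast cell and basophil markers fell, 4 of 4 measured, from a median summed level of 1426 TPM to 40.2 TPM, and 3 of 3 eosinophil markers rose, from 0.886 to 118 TPM. Summed lymphoid markers had a median of 69.1 TPM in progenitors and 25.7 TPM in monocytes, with Cd3e listed at 0 in every library. Erythroid and megakaryocyte markers had a median sum of 190 and 37.0 TPM, with a median of 0 for Hba-a1 in both states. Mitochondrial transcripts took 3.44 to 16.7% of TPM in progenitors and 1.98 to 25.1% in monocytes. Gene models named Gm held 32.0% ± 2.85 and 23.5% ± 3.33 (mean ± SD, n = 24 each). The part of these classes in the results below was not tested, except that the counts over all 24 clones of subunit genes that fell, rose or passed the interaction test were repeated with the neutrophil markers or the mitochondrial, Gm and pseudogene entries removed. The clones numbered 1 to 13 and those numbered 15 to 26 stood apart in earlier results of these data, although no label names such sets, so values are given within each set. The libraries of clones 21, 24 and 26 also stood apart and were left out together as a further check. The progenitor library of clone 24 had 8240 genes at 1 TPM or more, the fewest of the progenitor libraries (median 10242.5). Its mitochondrial share, 16.7% of TPM, was the highest among them. The cause was not tested.

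The DNA before an annotated transcription start of 6 subunit genes is printed first. It shows the 3 regulatory motifs that these promoters are known for, and stretches without them before Ndufa4 and Ndufv3. Each stretch is the 120 bases before that start, 5′ to 3′ on the strand of the gene, from RefSeq on GRCm38.p6. For Atp5j another annotated start lies further upstream, so its printed stretch falls within the gene. The window of that other start held no motif match. Capitals mark a match to 1 of 3 motifs searched on both strands: GCGCATGC for NRF1, CCGGAAGT for GABPA and AAGATGGC for YY1. Ndufa4 (chr6:11907451-11907570, minus strand), which had the largest fall in complex I, and Ndufv3 (chr17:31519995-31520114, plus strand), which had the largest rise of all measured subunit genes, held none of these letters in the printed stretch. Atp5j (chr16:84834977-84835096, minus strand) held the YY1 letters, Uqcr11 (chr10:80406822-80406941, minus strand) those of GABPA and the start of an NRF1 match that runs past the transcription start, Atp5k (chr5:108434400-108434519, minus strand) those of NRF1 on both strands, overlapping, and Atp5h (chr11:115419920-115420039, minus strand) those of GABPA on the opposite strand.
Ndufa4: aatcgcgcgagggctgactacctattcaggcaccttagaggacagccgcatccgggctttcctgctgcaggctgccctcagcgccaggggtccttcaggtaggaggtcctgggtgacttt
Ndufv3: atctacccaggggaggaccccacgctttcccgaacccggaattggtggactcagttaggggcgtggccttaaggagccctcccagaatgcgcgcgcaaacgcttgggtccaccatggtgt
Atp5j: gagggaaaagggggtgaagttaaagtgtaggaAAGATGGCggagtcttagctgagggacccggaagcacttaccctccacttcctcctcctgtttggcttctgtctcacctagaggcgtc
Uqcr11: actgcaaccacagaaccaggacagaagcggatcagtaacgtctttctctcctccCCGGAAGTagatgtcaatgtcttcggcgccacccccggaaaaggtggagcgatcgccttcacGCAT
Atp5k: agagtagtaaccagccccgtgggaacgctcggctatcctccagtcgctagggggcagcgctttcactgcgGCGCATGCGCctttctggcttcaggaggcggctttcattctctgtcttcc
Atp5h: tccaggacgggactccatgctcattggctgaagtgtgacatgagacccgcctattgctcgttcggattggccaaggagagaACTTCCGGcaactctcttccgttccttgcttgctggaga

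In the RefSeq promoter table, which gives 250 bases before and 50 after each start, 69 of the 84 genes had an entry (2 by an older symbol), in 74 windows. At least 1 of the 3 motifs was present in 32.4% of those windows, against 10.99% of the 21263 windows of all protein-coding genes. The YY1 letters were in 13.5% of the subunit windows and 3.05% of all windows, the NRF1 letters in 13.5 and 3.52%, and the GABPA letters in 6.76 and 5.15%. The 10 genes with the YY1 letters were 7 of complex I (Ndufa3, Ndufa9, Ndufb8, Ndufc1, Ndufs4, Ndufs6 and Ndufs7) and 3 of complex V (Atp5f1, Atp5j and Atp5j2). Apart from Atp5f1 (at -3) and Atp5j (at -88), these matches began 22 to 38 bases after the transcription start, inside the transcribed region. Among genes that fell in monocytes, 27.8% of 36 had a motif, and among those that rose or did not pass the test, 45.2% of 31 did; this difference was not tested. A match is a description of letters and no evidence that the factor binds there. The transcripts of the 3 factors themselves did not pass the test between states: Yy1 changed by 0.27 ± 0.23 (log2, SE; limma adjusted p = 0.305), Nrf1 by 0.18 ± 0.17 (limma adjusted p = 0.352) and Gabpa by -0.10 ± 0.22 (limma adjusted p = 0.691).

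Across all complexes and over all 24 clones, subunit transcripts were lower in monocytes more often than higher. Of the 84 genes, 79 had a mean of at least 1 TPM and are called measured. In a limma fit on log2(TPM + 1) that blocked on clone and used an adjusted p under 0.05 as the threshold, 44 of the 79 fell (55.7%, against 36.5% of the 11072 genes tested), 5 rose (6.33%, against 32.4%) and 30 did not pass. The 5 that rose were Ndufv3, Ndufb3, Cox7a1, Ndufa8 and Cox7a2l. The median change of the 79 was -0.28 on the log2 scale, and that of all genes tested was -0.06. Most changes were modest: 6 genes fell by at least 2-fold (13.3% of all genes tested did), and the largest rise was 0.84. No subunit gene had progenitor and monocyte libraries that did not overlap, which 1.70% of all genes tested had. A fall in at least 18 of the 24 clones was seen for 44 subunit genes, and for 33.4% of all genes tested. The sets of clones differed. In clones 1 to 13 alone 77.2% of the 79 fell, against 33.2% of all genes tested there. In clones 15 to 26 alone 12.7% fell, a smaller share than the 27.3% of all genes.

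The size of this shift depended on the scale. Subunit counts in this paragraph are out of 79, and the percentages set against them are shares of all genes tested. Without mitochondrial, Gm and pseudogene entries, and with the rest rescaled to the same total, the median of all genes moved to -0.25, and 60 subunit genes fell and 1 rose, against 45.9 and 28.2% of all genes. Without the 6 neutrophil markers, an alternative chosen after seeing the data, the median of all genes was 0.03, and 34 subunit genes fell and 10 rose, against 32.5 and 35.5% of all genes. With every library centred on its median gene, 42 fell and 1 rose, against 42.6 and 32.3% of all genes. Without clones 21, 24 and 26, 47 fell, against 39.9% of all genes. No gene called in either direction turned its sign under these 3 scales. Ndufv3 was the gene that rose under all of them.

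**Figure D1:**
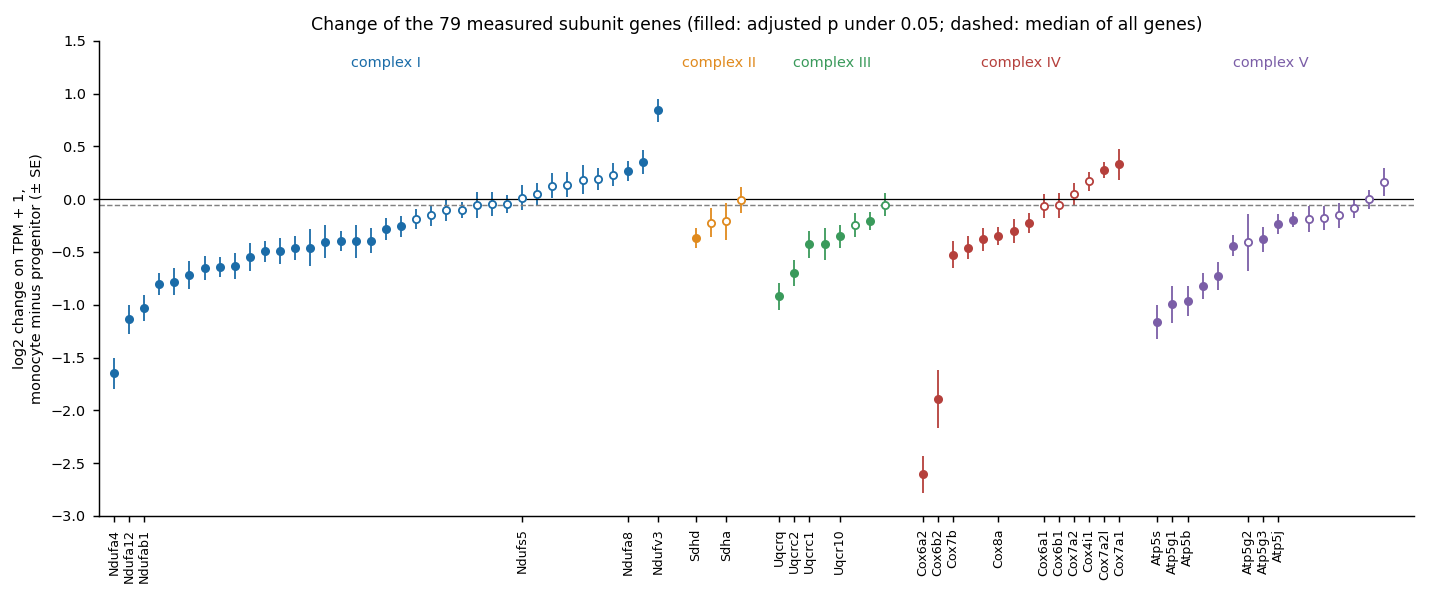
Change of each of the 79 measured subunit genes between states, as log2(TPM + 1) in monocytes minus progenitors ± SE (vertical axis), sorted within each complex (horizontal axis, with some genes named); filled points had a limma adjusted p under 0.05 and the dashed line is the median of all genes tested, -0.06. Most points lie below 0 in each complex, from Cox6a2 at -2.61 to Ndufv3 at 0.84.

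Complex I, which oxidises NADH, had 37 measured genes, of which 20 fell, 3 rose and 14 did not pass, with a median change of -0.28. Of all genes tested 36.5% fell and 32.4% rose, the shares to set beside this and each later count by complex or role from the same fit. Summed over complex I, the level was 5388 ± 881 TPM in progenitors and 4002 ± 748 TPM in monocytes (SD, n = 24 each) and lower in 19 of 24 clones. The counts, the median and that sum go by name and so include Ndufa4, a protein now assigned to complex IV. The mean of Ndufa4 went from 867 to 265 TPM.

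Ndufv1, the flavoprotein that binds NADH, ran from 19 to 79.2 TPM with a median of 67.5 in progenitors and from 17.2 to 74.1 TPM with a median of 36.3 in monocytes. The progenitor library of clone 24 was the lowest, and the groups overlapped. Its change was -0.72 ± 0.13 (limma adjusted p = 3.19e-05, lower in 22 of 24 clones). Ndufv2, the partner iron-sulfur subunit, went from 111 ± 21.9 to 70.6 ± 15.4 TPM, a change of -0.64 ± 0.10 (limma adjusted p = 1.21e-06, lower in 23 clones).

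The largest change under a complex I name was that of Ndufa4, a protein now assigned to complex IV despite its symbol. Ndufa4 ran from 365 to 1528 TPM in progenitors, with a median of 888, and from 143 to 400 TPM in monocytes, with a median of 265. The lowest progenitor library and the highest monocyte library were both from clone 24, the clone in which Ndufa4 did not fall. Means were 867 ± 312 and 265 ± 62.5 TPM, the change was -1.65 ± 0.15, and 23 of 24 clones were lower (limma adjusted p = 1.64e-10). Progenitors of clones 1 to 13 held 849 to 1528 TPM and those of clones 15 to 26 held 365 to 807 TPM, so the sets did not overlap, while their monocytes held 205 to 304 and 143 to 400 TPM. AA467197, also called Nmes1, encodes a paralogue of the Ndufa4 protein and went the other way. It had 0.135 ± 0.369 TPM in progenitors and 15.8 ± 21.1 TPM in monocytes, rose in 23 of 24 clones and was listed at 0 in both libraries of clone 17 (change 3.12 ± 0.28, limma adjusted p = 1.11e-10). In monocytes the mean of Ndufa4 remained above that of AA467197 on the TPM scale.

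Ndufa12, an accessory subunit next to the catalytic arm, ran from 93.6 to 378 TPM with a median of 303 in progenitors and from 36.2 to 308 TPM with a median of 118 in monocytes. Its lowest libraries in both states were those of clone 21 and its highest monocyte library was that of clone 24. The change was -1.14 ± 0.14 (limma adjusted p = 3.09e-08, lower in 23 of 24 clones). Ndufab1, the mitochondrial acyl carrier protein that also sits in complex I, was 149 to 273 TPM in progenitors and 54.5 to 196 TPM in monocytes, with medians of 227 and 116. It changed by -1.03 ± 0.12 (limma adjusted p = 2.08e-08), and 23 clones were lower.

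Ndufv3, a small accessory subunit beside the NADH-binding site, rose. It ran from 52.1 to 141 TPM in progenitors, with a median of 68.3, and from 67.3 to 247 TPM in monocytes, with a median of 130. Monocytes were higher in 23 of 24 clones although the 2 ranges overlapped, and the highest progenitor library was that of clone 26. The change was 0.84 ± 0.11 (limma adjusted p = 1.06e-07). Ndufv3 and Cox7a2l were the genes that rose in clones 1 to 13 taken alone, and Ndufv3 was the gene called higher in both sets. Ndufb3, an accessory subunit of the membrane arm, changed by 0.35 ± 0.12 (limma adjusted p = 0.00849, lower in 7 clones), and Ndufa8 by 0.27 ± 0.09 (limma adjusted p = 0.0138, lower in 5 clones).

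**Figure D2:**
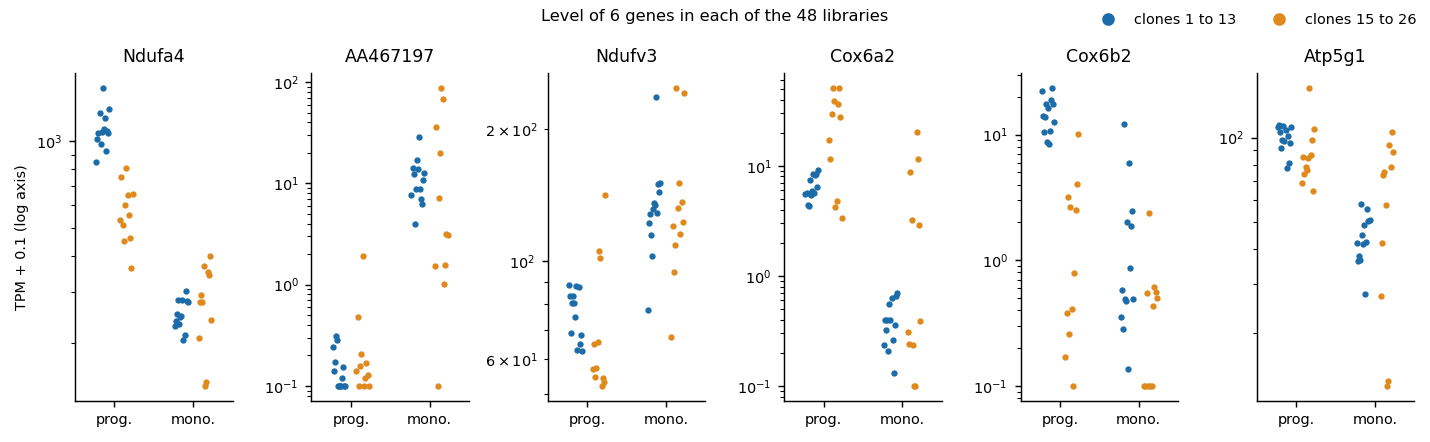
Level of 5 subunit genes and of AA467197 in each of the 48 libraries, as TPM + 0.1 on a log axis whose range differs between panels; each point is a library, prog. and mono. are the 2 states, and the colours are clones 1 to 13 and 15 to 26. Ndufa4 fell and AA467197 rose, and Cox6b2 in progenitors was 8.34 to 23.4 TPM in clones 1 to 13 against 0 to 10.0 TPM in clones 15 to 26.

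Complex II, succinate dehydrogenase, is encoded entirely in the nucleus and is shared with the tricarboxylic acid cycle. Of its 4 genes 1 fell, Sdhd, and 3 did not pass, with a median change of -0.22. Sdhd, a membrane anchor, was 65.5 ± 16.9 TPM in progenitors and 50.9 ± 13.4 TPM in monocytes and changed by -0.36 ± 0.10 (limma adjusted p = 0.00135, lower in 19 of 24 clones). Sdha, the flavoprotein with the succinate site, had the highest level of the complex and the largest spread between clones. It ran from 82.1 TPM (clone 24) to 963 TPM (clone 22) in progenitors, with a median of 531, and from 179 to 1031 TPM in monocytes, with a median of 463. The groups overlapped over most of their range, and the change of -0.21 ± 0.17 did not pass (limma adjusted p = 0.277). It passed without clone 24, at -0.33 (limma adjusted p = 0.0304). Sdhc changed by -0.22 and Sdhb by -0.01, and neither passed. These calls depended on the scale. Sdha and Sdhc were lower as well as Sdhd without mitochondrial, Gm and pseudogene entries (limma adjusted p = 0.00841 for Sdha and 0.00275 for Sdhc). They were also lower with median centring (limma adjusted p = 0.0176 and 0.0211), so 3 of the 4 genes fell on both scales. Of all genes tested, 45.9 and 42.6% fell on these scales.

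Complex III, which hands electrons from ubiquinol to cytochrome c, had 8 measured genes, of which 6 fell, 0 rose and 2 did not pass (Uqcrh at -0.25 and Uqcrb at -0.05). Its median change was -0.39; complexes were not tested against each other. Uqcrq, a small subunit and the most abundant of the 8, ran from 357 to 769 TPM in progenitors, with a median of 571, and from 122 to 501 TPM in monocytes, with a median of 279. It was lower in 22 of 24 clones, at -0.92 ± 0.12 (limma adjusted p = 2.5e-07). The core proteins Uqcrc2 and Uqcrc1 changed by -0.70 ± 0.13 (limma adjusted p = 1.85e-05) and -0.43 ± 0.13 (limma adjusted p = 0.00414). In Uqcrc2 the progenitor library of clone 24, at 33.3 TPM, lay far below the median of 123 TPM. Uqcrfs1, the Rieske iron-sulfur protein, fell least among the genes that passed, by 0.20 on the log2 scale. Summed over complex III, the level was 1713 ± 357 TPM in progenitors and 1208 ± 205 TPM in monocytes, and lower in 19 clones.

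Complex IV, cytochrome c oxidase, has several subunits with alternative genes for particular tissues. Of its 18 genes 14 were measured: 8 fell, 2 rose and 4 did not pass, with a median change of -0.26. The 4 not measured were alternative forms: Cox7b2 and Cox8c were listed at 0 in all 48 libraries, Cox8b in 47, and Cox4i2 did not exceed 0.0986 TPM. The fifth unmeasured subunit gene, Ndufa4l2, a paralogue of Ndufa4, did not exceed 1.60 TPM.

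Cox7b had the highest mean of all subunit genes. It ran from 1414 to 3265 TPM in progenitors, with a median of 2472, and from 688 to 2485 TPM in monocytes, with a median of 1646. It was lower in all 13 clones of the set 1 to 13 and in 6 of 11 in the set 15 to 26, at -0.53 ± 0.13 overall (limma adjusted p = 0.000672). Cox5b, Cox7c, Cox8a, Cox6c and Cox5a also fell, with changes from -0.46 (Cox7c) to -0.22 (Cox5a). Cox4i1, the common form of the largest nuclear-encoded subunit, was 489 ± 107 and 544 ± 86.0 TPM and did not pass (change 0.17, limma adjusted p = 0.113).

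Cox6a2 and Cox6b2 fell most in complex IV. Cox6a2, the heart and skeletal muscle form of subunit 6a, ran from 3.24 to 50.7 TPM in progenitors, with a median of 7.74, and from 0 to 20.3 TPM in monocytes, with a median of 0.293. It was the 1 subunit gene lower in all 24 clones, although the ranges overlapped, and changed by -2.61 ± 0.17 (limma adjusted p = 2.35e-13). Its progenitor level was 4.21 to 9.07 TPM in clones 1 to 13 and 3.24 to 50.7 TPM in clones 15 to 26. The 6 highest progenitor libraries were those of clones 17, 18, 19, 22, 23 and 24. The common form Cox6a1 was 247 ± 58.9 and 234 ± 49.1 TPM, so the log2 ratio of Cox6a1 to Cox6a2 rose by 2.54 ± 0.22 (SE), in 24 of 24 clones (permutation of states within clones, two-sided, p = 4e-05 adjusted over 8 ratios, from 1e-05, the smallest that 100000 resamples can give).

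Cox6b2, the testis form of subunit 6b, ran from 0 to 23.4 TPM in progenitors, with a median of 9.37, and from 0 to 12 TPM in monocytes, with a median of 0.396. Monocytes were lower in 23 of 24 clones, at -1.89 ± 0.28 (limma adjusted p = 8.39e-07). The clone sets differed in the progenitor state, with 14.9 ± 4.86 TPM in clones 1 to 13 and 2.14 ± 2.98 TPM in clones 15 to 26. The log2 ratio of Cox6b1 to Cox6b2 rose by 1.83 ± 0.30, in 22 of 24 clones (permutation p = 4e-05, adjusted). In clones 15 to 26 alone it rose by 1.05 (exact permutation, adjusted p = 0.0911). Both pseudocount and low level bear on the size of such ratios, and with a pseudocount of 0.1 the change of Cox6b2 was -2.91.

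Cox7a2l, which joins complexes III and IV into supercomplexes, rose from 100 ± 12 to 122 ± 17.5 TPM, higher in 22 of 24 clones, at 0.27 ± 0.08 (limma adjusted p = 0.00244). Its relative Cox7a2, the common subunit 7a, was 249 ± 48.7 and 258 ± 50.6 TPM and did not pass. The log2 ratio of Cox7a2 to Cox7a2l changed by -0.22 ± 0.12, lower in 19 clones (permutation p = 0.11, adjusted). It passed without clone 24, at -0.29. Cox7a1, the muscle form of 7a, was 4.01 ± 2.65 and 5.07 ± 2.85 TPM and changed by 0.33 ± 0.15 (limma adjusted p = 0.0472).

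Complex V, the ATP synthase, had 16 measured genes, of which 9 fell, 0 rose and 7 did not pass, with a median change of -0.31. Grouped by role after the values were seen, in the F1 head, where ATP is made, 3 of 5 genes fell: Atp5b, Atp5a1 and Atp5c1, while Atp5d (-0.18) and Atp5e (0.16) did not pass. Atp5b, the catalytic beta subunit, ran from 347 to 1537 TPM in progenitors, with a median of 1189, and from 265 to 1111 TPM in monocytes, with a median of 603. The lowest progenitor library was again that of clone 24, and 23 of 24 clones were lower. The change was -0.96 ± 0.14 (limma adjusted p = 1.19e-06). Atp5a1, the alpha subunit, changed by -0.82 ± 0.12 (limma adjusted p = 1.5e-06) and Atp5c1, the gamma subunit, by -0.44.

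In the stalk that ties the head to the membrane, 2 of 4 genes fell. Atp5o, which caps the head, changed by -0.73 ± 0.13 (limma adjusted p = 2.36e-05), and Atp5j, also called F6, was 1183 ± 264 and 995 ± 186 TPM and changed by -0.23 ± 0.09 (limma adjusted p = 0.0309). Atp5f1 (-0.09) and Atp5h (-0.00) did not pass. Of 3 small membrane subunits, Atp5l fell (-0.19) and Atp5j2 and Atp5k did not pass. These counts depended on the scale. Without mitochondrial, Gm and pseudogene entries 4 stalk genes and 3 small membrane genes fell, against 45.9% of all genes tested. With median centring, or without neutrophil markers, the counts were 1 and 0, against 42.6 and 32.5% of all genes. Atp5j and Atp5l were then no longer past the threshold (limma adjusted p = 0.055 and 0.0793 with centring, 0.215 and 0.266 without the markers). Atp5s, whose product is named as a coupling factor and is not a structural subunit of the enzyme, was low, 10.3 ± 2.59 and 4.46 ± 2.38 TPM, and changed by -1.16 ± 0.16 (limma adjusted p = 2.99e-07, lower in 23 clones).

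The proton-carrying c ring is made from 3 genes, Atp5g1, Atp5g2 and Atp5g3, whose mature proteins are identical and whose transcripts can share reads. Atp5g1 ran from 64.2 to 150 TPM in progenitors, with a median of 96.0, and from 12.8 to 105 TPM in monocytes, with a median of 46.5. It changed by -0.997 ± 0.17 (limma adjusted p = 1.09e-05, lower in 22 of 24 clones). Atp5g3 changed by -0.38 ± 0.12 (limma adjusted p = 0.00669). The log2 ratio of Atp5g1 to Atp5g3 changed by -0.62 ± 0.09, lower in 22 of 24 clones (permutation p = 5.33e-05, adjusted). It was -0.53 in clones 15 to 26 alone (exact permutation, adjusted p = 0.0547).

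Atp5g2 was 183 ± 54.1 and 118 ± 33.4 TPM and lower in 19 clones, but it was listed at 0 in the progenitor library of clone 21, while the other c ring genes had their highest progenitor values there (150 TPM for Atp5g1 and 301 TPM for Atp5g3). With that clone its change was -0.41 ± 0.27 (limma adjusted p = 0.183), and without it -0.68 (limma adjusted p = 1.46e-05). The ratio of Atp5g2 to Atp5g3 changed by -0.03 with clone 21 and by -0.36 without it (permutation p = 0.996 and 0.00052, adjusted), and that of Atp5g1 to Atp5g2 by -0.59 with clone 21 and by -0.22 without it (permutation p = 0.0705 and 0.114, adjusted).

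Summed over all 84 genes, the progenitor libraries held 12263 to 24637 TPM with a median of 20803, and the monocyte libraries 9720 to 20707 TPM with a median of 15013. The sum was lower in monocytes in 18 of 24 clones. In clones 1 to 13 it went from 21868 ± 1293 to 14692 ± 1253 TPM (SD, n = 13), and the states did not overlap. In clones 15 to 26 it went from 16742 ± 2456 to 15732 ± 3402 TPM (SD, n = 11), and the states overlapped widely. Clone 24 had the lowest progenitor sum and the highest monocyte sum.

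**Figure D3:**
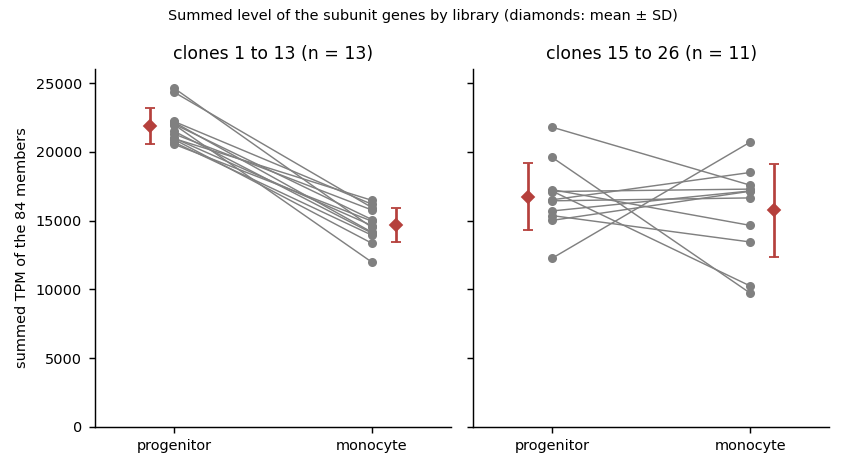
Summed TPM of the 84 subunit genes in each library (vertical axis), with the 2 states of a clone joined by a line; diamonds and bars are mean ± SD of clones 1 to 13 (n = 13, left) and clones 15 to 26 (n = 11, right). Every line falls in clones 1 to 13, from 21868 to 14692 TPM on average, while lines run both ways in clones 15 to 26.

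Within clones 1 to 13, 61 of the 79 genes fell and 2 rose, against 33.2% and 38.9% of the 10771 genes tested there, and the median change was -0.47 beside 0.08 for all genes. Within clones 15 to 26, 10 fell and 4 rose, against 27.3% and 17.8% of 11206 genes, with a median of -0.05 beside -0.22 for all genes. The 10 that fell in clones 15 to 26 also fell in clones 1 to 13: Ndufa4, Ndufa12, Ndufab1, Ndufb5, Uqcrc2, Cox6a2, Cox6b2, Atp5a1, Atp5b and Atp5s. No gene was called in opposite directions in the sets. By complex, the medians in clones 1 to 13 were -0.41 (I), -0.26 (II), -0.60 (III), -0.46 (IV) and -0.49 (V), and in clones 15 to 26 they were -0.06, -0.23, -0.07, -0.00 and -0.03.

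Clone by clone, 53 to 75 of the 79 genes were lower in clones 1 to 13, and 8 to 70 in clones 15 to 26. Most of the 79 were lower in 13 of 13 clones of the first set and in 5 of 11 of the other. The 6 clones where most were not lower were 17, 18, 19, 22, 23 and 24, the same 6 in which Cox6a2 was highest in progenitors, an overlap noticed after the values were seen. Clone 24 had 8 genes lower and a median change of 0.84, but the median of all genes there was 1.14. The median of the subunit genes was below that of all genes in 12 of 13 clones of the first set (clone 8 was the exception) and in 4 of 11 of the other. Summed neutrophil markers in monocytes also differed between the sets, with a median of 8.41% of TPM in clones 1 to 13 and 1.51% in clones 15 to 26, and mitochondrial transcripts with a median of 4.62 and 10.6%. The part of either in the difference was not tested beyond removing them.

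**Figure D4:**
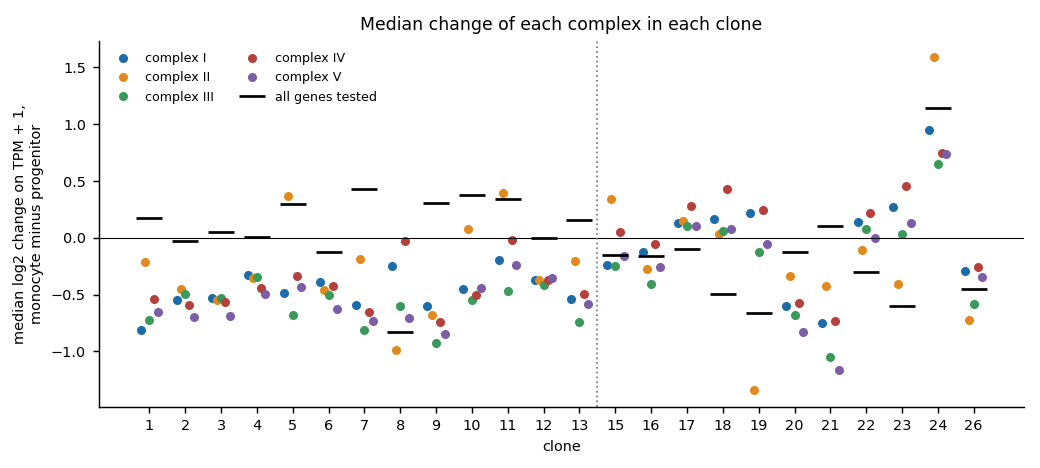
Median log2(TPM + 1) change, monocyte minus progenitor, of the measured genes of each complex (coloured points) and of all genes tested (bars) in each of the 24 clones; the dotted line separates clones 1 to 13 from 15 to 26. The points of complexes I, III, IV and V lie below 0 in all clones of the left set and on both sides of 0 in the right set.

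The 2 sets were taken from earlier results of these same data, so the p-values here are not those of a split fixed in advance. The difference between the sets was tested as an interaction of state and set. It passed for 14 of the 79 genes (17.7%), all with a less negative or a positive change in clones 15 to 26, while 11.5% of all genes tested passed and 1.66% did so in that direction (9.79% in the other). The median interaction of all genes was -0.29. The 14 were 8 of complex I (Ndufa1, Ndufa4, Ndufa7, Ndufa12, Ndufb4, Ndufb7, Ndufs3 and Ndufs5), Uqcr10 of complex III, Cox5b, Cox6a1, Cox6b2 and Cox7b of complex IV, and Atp5j of complex V. In Ndufs5, an accessory subunit, the change was -0.34 in clones 1 to 13 (limma adjusted p = 0.00176) and 0.43 in clones 15 to 26 (limma adjusted p = 0.0881), an interaction of 0.77 ± 0.18 (limma adjusted p = 0.00853), and over all clones it was 0.01. In Cox6a1 the values were -0.39 and 0.32. With each library centred on its median gene 54 subunit genes passed, against 20.3% of all genes (13.6% positive). Without clones 21, 24 and 26 the count was 38, against 33.1% of all genes (3.37% positive), so the number depends on scale and on a few clones. Leaving out single clones moved this count, out of 79 genes, by over 1.5 times in the following fits, given with the share of all genes. It was 33 without clone 21 (18.5% of all genes), 24 without clone 20 (14.6%) and 22 without clone 8 (22%). It was 9 without clone 7 (7.28%), 9 without clone 18 (6.52%) and 8 without clone 23 (6.70%). It was 14 again without mitochondrial, Gm and pseudogene entries (12 of them among the 14 above) and without neutrophil markers (13 of them), against 15.4 and 12.3% of all genes.

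**Figure D5:**
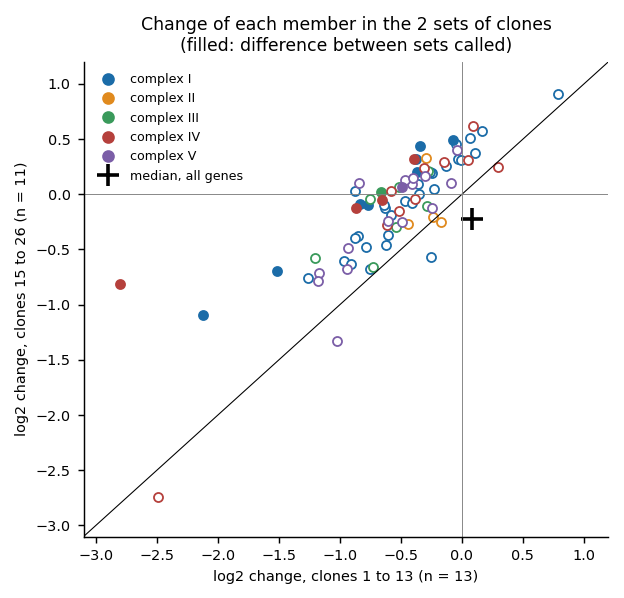
Log2(TPM + 1) change of each of the 79 measured genes in clones 1 to 13 (horizontal axis) and in clones 15 to 26 (vertical axis); filled points passed the interaction test, the diagonal marks equal change and the cross is the median of all genes tested (0.08 and -0.22). Most genes lie above the diagonal, and the 14 filled points all do.

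The other genes of the pathway came from lists written with earlier results of these data known. Beside the counts of each list, 36.5% of all genes tested fell and 32.4% rose. Of 46 measured assembly factors 29 fell, 6 rose and 11 did not pass, with a median change of -0.46. Ndufaf4 (-1.66, lower in 24 clones) and Ndufaf2 (-1.56), which build complex I, fell most. Coa4, a factor for complex IV, rose from 7.57 ± 1.99 to 18.2 ± 4.24 TPM with no overlap of the states (change 1.22 ± 0.17, limma adjusted p = 4.18e-07). Tmem126b rose by 0.59. Of 15 electron carriers and exchange proteins 11 fell and 2 rose (median -0.57). Dhodh, which passes electrons from pyrimidine synthesis to ubiquinone, changed by -1.72 and Slc25a4, an ADP/ATP carrier, by -1.09, while Gpd2 (0.92) and the uncoupling protein gene Ucp2 (0.87) rose. Cycs, cytochrome c, changed by -0.48 ± 0.09 (limma adjusted p = 3.54e-05); it falls outside the rule for named genes and was chosen after its value was seen.

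Of 13 genes of ubiquinone synthesis 8 fell and 3 rose (median -0.50), with Coq8a at -1.74 and Pdss1 at -1.44, and Coq10b (0.81) and Coq10a (0.70) higher. In the tricarboxylic acid cycle 12 of 16 fell and 1 rose (median -0.48), from Suclg2 at -2.19 and Idh3a at -1.66 to Ogdh at 0.52. Of 12 measured regulators of respiratory genes 7 fell and 2 rose (median -0.68). Myc, a driver of growth and of mitochondrial gene expression, went from 68.4 ± 39.8 to 10.5 ± 13.7 TPM (change -2.84 ± 0.31, limma adjusted p = 4.15e-09), and Tfam, the packaging factor of mitochondrial DNA, by -1.27, while Hif1a (0.54) and Esrra (0.43) rose. Among 8 modulators of the respiratory chain 5 fell and 3 rose. Chchd10 (-2.06) and the pyruvate dehydrogenase kinase Pdk1 (-1.73) were lower, and Acod1, whose product makes the succinate dehydrogenase inhibitor itaconate, went from 0.242 ± 0.214 to 23.9 ± 25.9 TPM (change 3.66 ± 0.30, limma adjusted p = 1.82e-11) and was higher in 24 of 24 clones.

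Of the 13 subunits encoded by mitochondrial DNA 5 fell (beside 36.5% of all genes tested), 1 rose (beside 32.4%) and 7 did not pass. Their median change was -0.30. In the interaction test 0 of 13 passed, beside 11.5% of all genes tested. Their median SD over clones of log2(TPM + 1) was 0.62 in progenitors and 0.99 in monocytes. The lower genes included mt-Nd3 (-1.22) and mt-Nd1 (-0.68) of complex I, and mt-Co1 of complex IV rose (0.37 ± 0.15, limma adjusted p = 0.0243). With median centring 3 of the 13 fell (beside 42.6% of all genes) and mt-Co1 no longer passed (limma adjusted p = 0.213). Their summed level was 57201 ± 14396 TPM in progenitors of clones 1 to 13 and 119314 ± 20566 TPM in those of clones 15 to 26, the reverse order of the nuclear-encoded sum in the same libraries.

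The subunit genes varied less between clones than most genes. The median SD over clones of log2(TPM + 1) was 0.35 in progenitors and 0.37 in monocytes, against 0.56 and 0.60 for all genes tested. Genes were not matched for level, so the part of abundance in this difference was not tested. Many of these genes have processed pseudogenes, and the authors' quantification divides reads among near-identical copies. The excluded Uqcrh-ps1 was listed at 66.5 ± 40.9 TPM in progenitors and 35.9 ± 26.9 TPM in monocytes, beside 286 ± 99.9 and 230 ± 46.0 TPM for Uqcrh, so the levels of such genes are uncertain.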

How the data were processed

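The authors deposited 1 table of TPM per gene symbol, quantified with Salmon on mm10 per the submitters' processing notes; the sources used here do not state the annotation or the step from transcripts to genes. Of 34643 rows, 26 named as calendar dates were left out. Groups came from the sample labels and clones from the titles. The states were compared by limma 3.58.1 (R 4.3.3) after log2(TPM + 1) transformation, two-sided, blocking on clone, with a trended variance, over 11072 genes with a mean of at least 1 TPM, and Benjamini-Hochberg adjustment. This scale understates changes of low genes. The interaction of state and clone set used the same fit. Ratios of alternative subunit genes were tested by 100000 swaps of state within clones (all swaps within the clone sets), two-sided, adjusted over 8 ratios. The series design pairs the libraries by clone, and deviations from the group means correlated above 0.1 within 18 of 24 clones. Libraries of different clones were not compared in this way, so that value does not test the pairing. The limma step was tested on simulated data.

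The subunit genes, lists and tests were chosen with earlier results of these data known. Genes named were, per complex, the most abundant, the most variable, up to 3 called in each direction moving that way in at least 18 of 24 clones, up to 3 called in the interaction, those below the filter and alternative subunit genes, and up to 2 per list and direction. Role groups within complexes, their members and the other names given were chosen after the values were seen. Promoters came from a RefSeq table of GRCm38.p6, and the NRF1 letters were shortened after a longer form had been counted. Tests of ratios and figures used scipy 1.17.1, numpy 2.4.6, pandas 2.3.3 and matplotlib 3.10.9 under Python 3.11.15. Alternatives changed the block, pseudocount, filter, scale and clones. 1 subunit gene is not reported by itself here, although the counts, sums and figures include it.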

Additional observations from a re-analysis of the deposited data

Results flagged for a closer look

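For 14 genes the change between states differed between clones 1 to 13 and clones 15 to 26 in the interaction test (limma, adjusted p under 0.05). The split into these sets was taken from earlier results of these same data and was not fixed in advance. The values are the change in clones 15 to 26 minus that in clones 1 to 13, on the log2(TPM + 1) scale. In complex I they were 0.56 for Ndufb7, 0.56 for Ndufa7, 0.67 for Ndufb4, 0.70 for Ndufa1, 0.75 for Ndufs3, 0.77 for Ndufs5, 0.82 for Ndufa12 and 1.03 for Ndufa4. In complex III the value was 0.68 for Uqcr10. In complex IV they were 0.60 for Cox5b, 0.71 for Cox6a1, 0.74 for Cox7b and 1.99 for Cox6b2. In complex V the value was 0.56 for Atp5j. All 14 were positive, while the median interaction of all genes tested was -0.29. Of all genes tested 11.5% passed, and 1.66% did so with a positive value.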

How the results depend on the processing

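The count of subunit genes lower in monocytes was 44 of 79 with the replicate block (36.5% of all genes tested) and 44 without it (35.4%). It was 41 to 47 over the fits that left out 1 clone each (35 to 39.5% of all genes). It was 60 without mitochondrial, Gm and pseudogene entries (45.9%), 42 with median centring (42.6%) and 34 without neutrophil markers (32.5%). In clones 1 to 13 alone it was 61 (33.2%), and in clones 15 to 26 alone it was 10 (27.3%). The count that was higher was 5 (32.4% of all genes tested). It was 1 without mitochondrial, Gm and pseudogene entries (28.2%) and 1 with each library centred on its median gene (32.3%). It was 2 in clones 1 to 13 (38.9%) and 10 without neutrophil markers (35.5%). The interaction count, 14 beside 11.5% of all genes tested, was 54 with median centring (20.3%) and 38 without clones 21, 24 and 26 (33.1%). Over the fits without 1 clone it was 8 (clone 23, 6.7% of all genes) to 33 (clone 21, 18.5%). In clones 15 to 26 alone 22 of the 79 genes had another sign than over all clones: 18 not called over all clones, and the called genes Atp5j (0.0687), Cox6c (0.0294), Ndufa5 (0.0267) and Uqcr10 (0.0162), none of these 4 past the threshold there. Ndufs5, not called over all clones, was -0.34 in clones 1 to 13. The medians of complexes I to V were -0.53, -0.47, -0.64, -0.51 and -0.55 without mitochondrial, Gm and pseudogene entries, -0.36, -0.30, -0.47, -0.34 and -0.39 with median centring and -0.18, -0.11, -0.28, -0.16 and -0.20 without neutrophil markers.

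For the ratios of alternative genes, Atp5g1 to Atp5g2 passed at -0.34 in clones 1 to 13 and -0.31 without clones 21, 24 and 26. Atp5g2 to Atp5g3 passed at -0.36 and -0.33, and Cox7a2 to Cox7a2l at -0.45 and -0.26. In clones 15 to 26, Atp5g1 to Atp5g3 (-0.53) and Cox6b1 to Cox6b2 (1.05) no longer passed. Over the fits without 1 clone, Atp5g1 to Atp5g2 ranged from -0.66 to -0.22, Atp5g2 to Atp5g3 from -0.36 to 0.0329 and Cox7a2 to Cox7a2l from -0.29 to -0.18. The causes were not tested. TPM keep no depth, so the precision of low genes such as Cox6a2, Cox6b2 and Cox7a1 cannot be given.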
